A study of Schizosaccharomyces pombe with 8 samples.

Results

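The genes described here are 10 genes of the mating pheromone pathway and of meiotic entry in the fission yeast Schizosaccharomyces pombe, chosen by their identifiers among the 6973 named features of the count files. They are the M-factor precursor genes mfm1 (SPAPB8E5.05), mfm2 (SPAC513.03) and mfm3 (SPBPJ4664.03), the exporter gene mam1 (SPBC25B2.02c), the receptor genes mam2 (SPAC11H11.04) and map3 (SPAC3F10.10c), gpa1 (SPBC24C6.06), and the regulators ste11 (SPBC32C12.02), map1 (SPAC11E3.06) and mei3 (SPBC119.04). All 10 were found, and all 10 passed the filter on low counts. In the ASM294v3 annotation, 5 of them lie on chromosome I, namely mfm1 (chrI:4917015-4917521), mfm2 (chrI:2912762-2913250), mam2 (chrI:4780688-4781922), map3 (chrI:2833231-2834988) and map1 (chrI:5292705-5294751). The other 5 lie on chromosome II, namely mfm3 (chrII:700364-700700), mam1 (chrII:2596405-2600486), gpa1 (chrII:2329710-2331890), ste11 (chrII:3983376-3987400) and mei3 (chrII:719719-720990). The files hold sequential RNA immunoprecipitation followed by sequencing (seqRIP-seq), which was used to find transcripts bound at once by Mmi1 and Mei2. The TAP-Mmi1 strain carried kanMX::Pnmt41-TAP-Mmi1 and the control strain carried kanMX::Pnmt41-GFP-Mmi1, and both carried natMX::Pnmt1-3xFLAG-Mei2. The extract was purified first on IgG beads, which hold the TAP tag and not GFP, and then with an anti-FLAG antibody. The immunoprecipitate (IP) and the whole cell extract (WCE) were sequenced for 2 biological replicates of each strain, 8 libraries in all.

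Both strains grew exponentially in minimal medium at 30 °C and were crosslinked with 0.2% formaldehyde. Tagged Mei2 was thus driven by nmt1, a strong promoter, and tagged Mmi1 by its milder variant nmt41. The paper describes the cells as overexpressing Mei2. Protein levels are not part of the data described here. Their mating type was not given in the labels.

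In fission yeast, cells of the M and P mating types signal to each other with the peptides M-factor and P-factor when nitrogen runs out. Each pheromone binds a receptor on the partner, and the signal passes through the G protein alpha subunit Gpa1 and a MAP kinase cascade to the transcription factor Ste11, which switches on the mating genes. After fusion, Mei3 inhibits the kinase Pat1, which frees Mei2 to start meiosis. In growing cells Mmi1, a YTH-domain protein that binds UNAAAC motifs, takes meiotic mRNAs to degradation, and Mei2 counteracts it.

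The motif that Mmi1 reads occurred in the annotated span of all 10 genes, but also in 90.7% of all 5108 mRNA spans, where it was searched on the sense strand as TNAAAC in DNA letters. Per kb it was most frequent in mfm1 (3.94) and mei3 (3.93), against a median of 1.65 per kb in all mRNAs, and least frequent in mam1 (0.735). mam2 had 3 copies, or 2.43 per kb, all in its coding sequence. They are shown because mam2 was the 1 gene of the 10 that the edgeR test with TMM scaling called higher over the control, with the motif in capitals, from the RefSeq reference ASM294v3, each read on the plus strand of chromosome I.
mam2 site at chrI:4781021-4781050: tacgggtttatcTTAAACatggttcatatg
mam2 site at chrI:4781658-4781687: gaacgtttgataTCAAACatactcccagtg
mam2 site at chrI:4781701-4781730: ttctgatgaatcTGAAACtaaaaagtggac

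mei3, which had the next largest ratio over the control, had 5 copies, 3 of them in its annotated 3′ UTR. The copy in its coding sequence and the first in its 3′ UTR are shown, from the plus strand of chromosome II.
mei3 coding site at chrII:720020-720049: atagcgttcccaTGAAACgcactaaacgtg
mei3 3′ UTR site at chrII:720357-720386: aatttttattaaTTAAACcgctgttatagg

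The 3 M-factor genes are shown at the end of their coding sequences, because how far their reads can be told apart limits their counts. These last 30 bases hold 3 positions, in capitals, at which the genes were not all the same, and mfm1 and mfm3 were identical there.
mfm1, chrI:4917269-4917298, plus strand: aaggttccttaCatgtgtgtCattgcAtaa
mfm2, chrI:2913008-2913037, minus strand: aaggttccttaTatgtgtgtAattgcTtaa
mfm3, chrII:700527-700556, plus strand: aaggttccttaCatgtgtgtCattgcAtaa
The last 12 residues encoded were the same in all 3 genes. Over the whole coding sequence mfm1 and mfm3 were 93.0% identical, mfm1 and mfm2 68.1%, and mfm2 and mfm3 70.6%. The annotated spans of mfm1 and mfm3 shared an identical run of 91 bases, longer than the 75-nt reads, so that the split of such reads between these genes is uncertain, whereas mfm2 shared at most 11 bases in a row with either.

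Ste11 binds a motif called the TR box, with the core TTCTTTGTT, which was searched on both strands from 250 bases before to 50 after each annotated start. It was found in this window of 4 of the 10 genes (ste11, map1, mfm1 and mfm3) and of 2.00% of all mRNAs. The windows of mfm1 and mfm3 belong to genes of near-identical sequence. The sites are shown on the strand of the gene with the match in capitals, which for map1, mfm1 and mfm3 is the motif of the opposite strand.
ste11 site at chrII:3983239-3983267: aaagttgaatTTCTTTGTTtgattttcat
map1 site at chrI:5292721-5292749: tacaatttgtAACAAAGAAacacacattt
mfm1 site at chrI:4916926-4916954: gggtccgaccAACAAAGAAgtctcagttt
mfm3 site at chrII:700190-700218: aggcccaaccAACAAAGAAgtctcagatt

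The libraries held 34415561 to 53703741 counts. The share of ribosomal RNA was 79.2% and 82.0% for TAP-Mmi1 IPs and 96.4% and 96.0% for GFP-Mmi1 IPs, against 7.98% to 27.4% for the WCEs, which alone had been depleted of rRNA. Counts outside rRNA were 7585245 and 6816082 in the TAP-Mmi1 IPs, and 1248446 and 1373823 in the GFP-Mmi1 IPs. The share of counts outside rRNA was thus larger in both TAP-Mmi1 IPs, and for this reason each result below is given in 2 ways. The ratio of the deposited IP and WCE counts keeps this general gain. The edgeR test, a quasi-likelihood test with TMM scaling (trimmed mean of M-values) and Benjamini-Hochberg adjustment over 6827 features, takes it away and asks whether a gene gained more or less than most. With library totals in place of TMM, the median log2 enrichment of all features over the control moved by 2.68.

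The counting did not separate strands. Of 79 pairs of features that lie on opposite strands and cover each other over at least 90% of their length, 72 (91.1%) had summed counts within 10% of each other. This matters for map3, whose span (chrI:2833231-2834988) is covered over 99.8% by his6, a histidine biosynthesis gene on the other strand. The count of map3 was 0.851 to 1.08 times that of his6 in the 8 libraries, so that the values of map3 cannot be told apart from those of his6. Likewise mfm3 lies wholly within the span of SPNCRNA.1381, 47.3% of gpa1 is covered by SPNCRNA.1503 and 27.6% of map1 by SPNCRNA.1067, all on the opposite strand. Of mam1, 1.18% is covered by hbs1. No listed feature overlapped ste11, mei3, mam2, mfm1 or mfm2.

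In the whole cell extracts of these cultures, whose cells the paper describes as mitotic, the 10 genes ranged from low to high levels among mRNAs. On the scale of counts per 1000000 outside rRNA per kb of annotated span, 8 of the 10 genes were above the median of all mRNAs (45.7), as drawn in the plot of levels by gene. mfm1 had the highest level, 469.8 and 477.6 in TAP-Mmi1 extracts and 461.7 and 449.5 in GFP-Mmi1 extracts, above 97.5% of mRNAs. The level of mfm2 was 313.5 and 268.6 in TAP-Mmi1 extracts and 408.8 and 390.5 in GFP-Mmi1 extracts. It was followed by ste11, with 263.2 and 243.1 in TAP-Mmi1 extracts and 193.4 and 205.5 in GFP-Mmi1 extracts. These ranges did not overlap between neighbours in the order.

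The receptor gene mam2, whose product binds P-factor on M cells, had levels of 163.7 and 149.3 in TAP-Mmi1 extracts and 156.4 and 147.2 in GFP-Mmi1 extracts. The map3 feature, named for the M-factor receptor of P cells, had 187.1 and 175.0 in TAP-Mmi1 extracts and 120.2 and 121.0 in GFP-Mmi1 extracts. The levels of mam2, map3, mfm3 and mam1 overlapped each with the next, so that their order (means of 154.2, 150.8, 118.5 and 110.1 over the 4 extracts) was not resolved.

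The lowest levels were those of the G protein gene gpa1 (mean 48.1 ± 2.7, SD over the 4 extracts), of map1 (22.6 ± 1.5), which encodes a MADS-box activator of P-specific genes, and of mei3. mei3 had levels of 16.1 and 14.6 in TAP-Mmi1 extracts and of 24.7 and 23.6 in GFP-Mmi1 extracts. This is above 12.2% of mRNAs, and its counts in the 4 extracts were 676 to 1054, so that the transcript was detected in every extract. Its levels overlapped with those of map1.

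**Figure D1:**
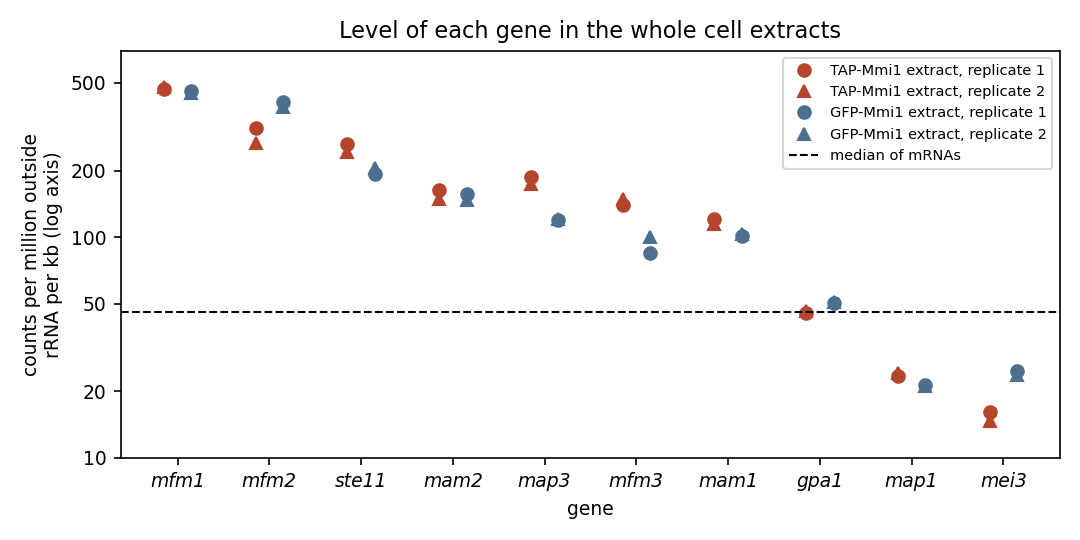
Level of each of the 10 genes in the whole cell extracts (y axis, counts per 1000000 outside rRNA per kb, log axis), with TAP-Mmi1 extracts left of GFP-Mmi1 extracts, a point for each replicate, and the median of all mRNAs as a dashed line. mfm1 lies highest, near 465, and map1 and mei3 lie lowest, below the mRNA median of 45.7.

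The next question was whether the mating programme had the same RNA levels in both strains. In TAP-Mmi1 against GFP-Mmi1 extracts, none of the 10 genes was called higher and none lower by edgeR, where 0.293% of all features were called higher and 0.0586% lower. At an unadjusted p under 0.05, 2 of the 10 genes and 610 of the 6827 features differed, among them ste11 (log2 difference 0.42 ± 0.16 SE, edgeR adjusted p = 0.491) and map3 (0.66 ± 0.15, edgeR adjusted p = 0.161). DESeq2 called map3 higher and no other of the 10, where it called 3.95% of all features higher and 1.52% lower. The remaining differences ran from -0.57 for mei3 to 0.72 for mfm3. The median over the 10 genes was 0.19, beside -0.0061 for all features.

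Genes of both mating types were expressed in both strains, with at least 962 counts in every extract for the 8 M cell genes and at least 1400 for the 4 P cell genes, of which map3 is not separable from his6. Summed over the 4 P cell genes, the level was 2561 and 2389 counts per 1000000 outside rRNA in TAP-Mmi1 extracts and 1400 and 1578 in GFP-Mmi1 extracts. For the 8 M cell genes it was 2324 and 2281 in TAP-Mmi1 extracts and 1985 and 2032 in GFP-Mmi1 extracts. map2, the P-factor precursor gene, rose in TAP-Mmi1 extracts, with a log2 difference of 1.09 ± 0.11 (SE, edgeR adjusted p = 0.0141). Its counts were 44869 and 30618 in TAP-Mmi1 extracts and 14340 and 15257 in GFP-Mmi1 extracts. Among the 4 starvation genes, isp4 rose too, by 1.98 ± 0.18 on the log2 scale (edgeR adjusted p = 0.0141), and none of the 8 genes of late meiosis and spore formation was called. Summed over these 8 genes, the level was 6169 and 5450 counts per 1000000 outside rRNA in TAP-Mmi1 extracts. In GFP-Mmi1 extracts it was 5794 and 6104, so that transcripts of late meiosis were present in all extracts. The share of meiotic cells was not tested. In these bulk samples more cells of a mating type and more RNA per cell cannot be told apart, and the part of either in the levels of the 10 genes was not tested.

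In the immunoprecipitates, mam2 had the highest TAP-Mmi1 ratio of the 10 genes. Its counts were 3089 and 3049 in the TAP-Mmi1 IPs and 142 and 98 in the GFP-Mmi1 IPs, beside 9319 and 6692 in the TAP-Mmi1 WCEs and 6479 and 5855 in the GFP-Mmi1 WCEs. The IP over WCE ratio of these counts was 0.331 and 0.456 with TAP-Mmi1, against 0.0219 and 0.0167 with GFP-Mmi1. The mean ratio was thus 20.4 times that of the control, more than for 94.9% of mRNAs. Relative to most features, mam2 rose in the TAP-Mmi1 strain over the control by 2.03 ± 0.20 on the log2 scale, a 4.07-fold gain (edgeR adjusted p = 0.000217). mam2 was called higher in this comparison under every scaling, tool and omission of a library that was tried.

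The features on either side of mam2, named here after their values were seen, had high ratios as well. SPAC11H11.03c, 386 bases away, had ratios of 0.701 and 0.773 with TAP-Mmi1, against 0.0346 and 0.0422 with GFP-Mmi1. fta6, a kinetochore protein gene 124 bases away, had ratios of 0.776 and 0.561 with TAP-Mmi1, against 0.0631 and 0.0372 with GFP-Mmi1. Both lie on the strand opposite to mam2 and do not overlap it. Their log2 enrichment over the control was 1.96 ± 0.29 for SPAC11H11.03c (edgeR adjusted p = 0.00123) and 1.48 ± 0.49 for fta6 (edgeR adjusted p = 0.0437). Their part in the counts of mam2 was not tested.

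**Figure D2:**
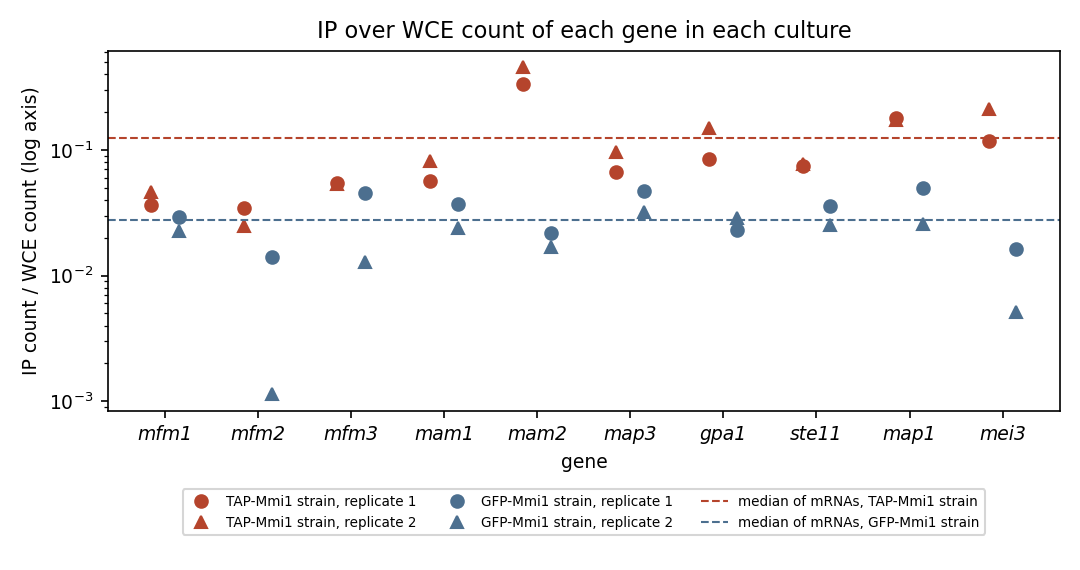
IP count over WCE count of each of the 10 genes (y axis, log axis), with TAP-Mmi1 cultures left of GFP-Mmi1 cultures, a point for each replicate, and the median of all mRNAs in each strain as a dashed line (0.125 with TAP-Mmi1 and 0.0278 with GFP-Mmi1). mam2 lies well above the TAP-Mmi1 median, while the M-factor genes, mam1, map3 and ste11 lie below it in both TAP-Mmi1 cultures.

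The M-factor genes, which encode the precursors of the farnesylated pheromone of M cells, were among the mRNAs with the lowest ratios, with mean TAP-Mmi1 ratios above 7.76% (mfm1), 3.51% (mfm2) and 13.9% (mfm3) of mRNAs. mfm1 had 401 and 407 counts in the TAP-Mmi1 IPs and 228 and 167 in the GFP-Mmi1 IPs, with ratios of 0.0365 and 0.0463 with TAP-Mmi1, against 0.0290 and 0.0227 with GFP-Mmi1. This was a 1.60-fold ratio over the control, and in the edgeR test mfm1 fell by 1.63 ± 0.19 on the log2 scale (adjusted p = 0.000402). Its high level in the extract thus stood beside a low recovery.

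mfm2 had 242 and 118 counts in the TAP-Mmi1 IPs and 95 and 7 in the GFP-Mmi1 IPs. Its ratios were 0.0343 and 0.0248 with TAP-Mmi1, against 0.0142 and 0.00114 with GFP-Mmi1, where the replicates lay far apart. The log2 enrichment was -0.32 ± 0.91 (edgeR adjusted p = 0.806), and without GFP-Mmi1 IP replicate 1 it was 2.48, so that no direction can be given. mfm3 had 118 and 98 counts in the TAP-Mmi1 IPs and 44 and 14 in the GFP-Mmi1 IPs, and ratios of 0.0544 and 0.0537 with TAP-Mmi1, against 0.0457 and 0.0129 with GFP-Mmi1. Its log2 enrichment was -1.35 ± 0.54 (edgeR adjusted p = 0.0789), and it passed the threshold without GFP-Mmi1 IP replicate 2 (-1.91, adjusted p = 0.00246) and lay at -0.36 without GFP-Mmi1 IP replicate 1 (adjusted p = 0.473). The fold of the mean ratios, 1.84, was 4.19 without GFP-Mmi1 culture 1 and 1.18 without culture 2.

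mam1, the ABC transporter gene that serves M-factor export, had 1295 and 1399 counts in the TAP-Mmi1 IPs and 511 and 322 in the GFP-Mmi1 IPs. In the TAP-Mmi1 cultures its ratios were 0.0569 and 0.0820, against 0.0369 and 0.0237 in the GFP-Mmi1 cultures. Relative to most features it fell by 1.12 ± 0.24 on the log2 scale (edgeR adjusted p = 0.00715). The map3 feature had 1010 and 1083 counts in the TAP-Mmi1 IPs and 335 and 221 in the GFP-Mmi1 IPs. It had ratios of 0.0666 and 0.0970 with TAP-Mmi1, against 0.0473 and 0.0322 with GFP-Mmi1, and fell by 1.28 ± 0.22 (edgeR adjusted p = 0.00291), a value that cannot be assigned to map3 rather than his6. mam2 and the map3 feature therefore lay on opposite sides of the median feature.

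gpa1, the G protein alpha subunit gene that both receptors share, had 384 and 546 counts in the TAP-Mmi1 IPs and 84 and 102 in the GFP-Mmi1 IPs. Its ratios of 0.0844 and 0.149 with TAP-Mmi1, against 0.0229 and 0.0286 with GFP-Mmi1, were close to the mRNA medians, and its log2 enrichment was -0.15 ± 0.28 (edgeR adjusted p = 0.688).

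ste11, the master regulator gene of the mating programme, had 3640 and 2763 counts in the TAP-Mmi1 IPs and 931 and 671 in the GFP-Mmi1 IPs, beside 48820 and 35513 in the TAP-Mmi1 WCEs and 26112 and 26649 in the GFP-Mmi1 WCEs. Its ratios, 0.0746 and 0.0778 with TAP-Mmi1, against 0.0357 and 0.0252 with GFP-Mmi1, put it above 25.4% of mRNAs in the TAP-Mmi1 strain. In the edgeR test it fell by 0.95 ± 0.23 on the log2 scale (adjusted p = 0.0135). This call was lost when any 1 of the 4 WCE libraries was left out (adjusted p of 0.0523 to 0.0775), while the log2 value stayed between -1.16 and -0.75 over all omissions.

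The 3 features whose normalized profile over the 8 libraries was nearest to that of ste11, by Euclidean distance of centred log2 counts, were sap1 (0.37), ags1 (0.40) and mak3 (0.40). The median distance of the 333 features of like level was 1.49. For mei3 the nearest of 1359 features were SPAC3F10.12c (0.41), SPAC8E11.06 (0.64) and SPNCRNA.159 (0.76), beside a median of 2.57.

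map1 had 399 and 309 counts in the TAP-Mmi1 IPs and 73 and 36 in the GFP-Mmi1 IPs. The ratio was 0.179 and 0.172 in TAP-Mmi1 cultures, against 0.0498 and 0.0257 in GFP-Mmi1 cultures, and its log2 enrichment of -0.070 ± 0.38 (edgeR adjusted p = 0.899) put it near the median feature.

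mei3, whose product inhibits Pat1, had 111 and 144 counts in the TAP-Mmi1 IPs and 17 and 5 in the GFP-Mmi1 IPs, beside 943 and 676 in the TAP-Mmi1 WCEs and 1054 and 968 in the GFP-Mmi1 WCEs. In TAP-Mmi1 cultures the ratio was 0.118 and 0.213, against 0.0161 and 0.00517 in GFP-Mmi1 cultures, a 15.5-fold difference of the means. This fold was 32.01 without GFP-Mmi1 culture 1 and 10.3 without culture 2. The large fold came with a low control ratio: with TAP-Mmi1 the mean ratio was above 65.0% of mRNAs, and with GFP-Mmi1 above 2.08%. The log2 enrichment of 1.59 ± 0.56 missed the threshold (edgeR adjusted p = 0.053). It passed with DESeq2 (1.66, adjusted p = 0.00193), without GFP-Mmi1 IP replicate 1 (2.66, edgeR adjusted p = 0.00441) and without TAP-Mmi1 IP replicate 1 (1.76, edgeR adjusted p = 0.039), while without GFP-Mmi1 IP replicate 2 it was 0.99 (edgeR adjusted p = 0.0541). Over all omissions of a library the edgeR adjusted p was 0.00441 to 0.144.

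Counted together, mam2 was the 1 gene of the 10 called higher over the control, where 18.9% of all features were called higher. The 4 called lower were ste11, map3, mfm1 and mam1, where 23.7% of all features were called lower. The median log2 enrichment of the 10 genes was -0.63, beside -0.055 for all features and -0.16 for mRNAs. All these directions are relative to the median feature. Scaled to library totals alone, all 10 genes were positive and 9 of them were called higher, all but mfm2, where 89.5% of all features were called higher. By their log2 values alone, mam2 and mei3 lay above the median feature and the other 8 genes below it. For map1 (-0.070 under TMM), gpa1 (-0.15) and mfm2 (-0.32) the sign changed in some omissions of a library, so that their side was not resolved. The change of scaling moves all features by nearly the same amount, so that it cannot test these positions.

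**Figure D3:**
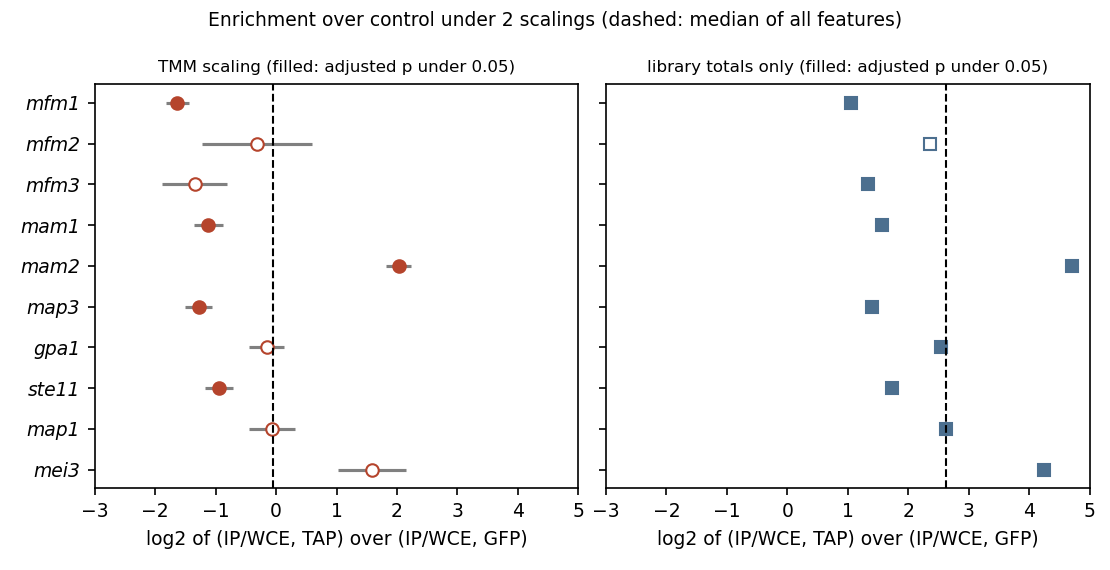
Log2 of the IP over WCE ratio with TAP-Mmi1 over that with GFP-Mmi1 (x axis) for each of the 10 genes, from edgeR with TMM (left, bars are the SE) and with library totals only (right), with the median of all features as a dashed line. mam2 (2.03) and mei3 (1.59) lie right of the dashed line on the left panel, and mfm1 (-1.63) lies farthest to its left, while on the right panel all 10 values are above 0.

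The rule of the study keeps a feature when its relative SD over the TAP-Mmi1 ratios is under 0.3 and its mean ratio is over 2 times the control. On the deposited counts it kept 6 of the 10 genes (ste11, map1, mam2, map3, mfm2 and mam1), where it kept 58.9% of all features. mei3 (relative SD 0.408) and gpa1 (0.390) were over 2 times the control and missed the limit on the relative SD, and mfm1 and mfm3 were under 2 times the control. Both TAP-Mmi1 ratios lay above both GFP-Mmi1 ratios in all 10 genes, as in 89.0% of all features. The median fold over the control was 3.18 for the 10 genes and 4.40 for mRNAs. With counts scaled to totals outside rRNA, mam2 was the 1 gene kept, where 18.4% of all features were kept.

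Set against its own extract, mam2 was also the 1 gene called higher in the TAP-Mmi1 IP, with a log2 difference of 1.47 ± 0.14 (edgeR adjusted p = 5.47e-05), where 29.2% of all features were called higher. The 6 genes ste11, map3, mfm1, mfm2, mfm3 and mam1 were called lower, where 30.7% of all features were called lower. The lowest of them was mfm2, at -2.18 ± 0.61, and next mfm1, at -1.77 ± 0.13. map1, gpa1 and mei3 were not called, with values of 0.34, -0.30 and 0.19.

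In the GFP-Mmi1 IP against its own extract, the background of the purification, none of the 10 genes was called higher and mam2 was called lower, at -0.55 ± 0.15 (edgeR adjusted p = 0.0421), where 11.1% of all features were called higher and 6.44% lower. At an unadjusted p under 0.05, 4 of the 10 genes and 2253 of the 6827 features differed. DESeq2 called map3 higher and mei3 and mam2 lower, where it called 16.6% of all features higher and 13.7% lower. The call of mam2 was lost in 5 of the 8 omissions of a library (edgeR adjusted p of 0.00841 to 0.131 over the 8). Its log2 value stayed between -0.79 and -0.35. The comparisons share libraries and are not independent of each other.

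The other genes of the pathway, taken from lists that leave out the 10, were set in the same comparison of the TAP-Mmi1 strain with the control, where 18.9% of all features were called higher and 23.7% lower. Of 15 other genes of pheromone signalling, 4 rose and 5 fell relative to the median feature, and the median was 0.21. Directions here too are relative to the median feature under TMM, and ratios of the deposited counts are not given for the listed genes. The genes that rose were the formin gene fus1, needed for cell fusion (log2 enrichment 2.37 ± 0.22), rgs1, a regulator of the G protein (2.16 ± 0.21), the GTPase gene ras1 (2.13 ± 0.37) and byr2, the first kinase of the MAP kinase cascade (2.00 ± 0.23), with edgeR adjusted p of 0.000159, 0.000201, 0.00287 and 0.000415. byr2 had 2519 and 2044 counts in the TAP-Mmi1 IPs and 113 and 82 in the GFP-Mmi1 IPs. Against the GFP-Mmi1 extract, 3 of the 15 genes were called higher in the GFP-Mmi1 IP, where 11.1% of all features were. Among them were byr2 (1.18 ± 0.17) and rgs1 (0.64 ± 0.15). In the TAP-Mmi1 IP against its extract 5 were called higher and 6 lower, where 29.2% and 30.7% of all features were. Features on the opposite strand cover 87.4% of ras1 (leu5), 68.5% of fus1 (SPNCRNA.1026) and 32.5% of rgs1 (SPNCRNA.675), and their reads cannot be told apart there.

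The 5 signalling genes that fell were the pheromone protease genes sxa1 (-2.05 ± 0.18) and sxa2 (-1.97 ± 0.42), ste7 (-1.75 ± 0.33), ste4, whose product binds Byr2 (-1.02 ± 0.33), and the MAP kinase gene spk1 (-0.64 ± 0.19). edgeR adjusted p ran from 0.000124 to 0.0388 in these. hem4 covers 77.3% of spk1 on the opposite strand.

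Each of the other mating-type genes fell as well. They were mam3, an agglutinin gene of M cells (-2.84 ± 0.29), sxa2, mam4, the methyltransferase gene of M-factor (-1.55 ± 0.40), map2 (-2.55 ± 0.16) and the P cell adhesin gene map4 (-2.66 ± 0.18). That makes 3 of 3 other M cell genes and 2 of 2 other P cell genes, with edgeR adjusted p of 4.15e-05 to 0.0168. Against their own extracts, all of them were called lower in the TAP-Mmi1 IP, where 30.7% of all features were. In the GFP-Mmi1 IP the 2 P cell genes were called higher, where 11.1% of all features were, and the 3 M cell genes were not called. Of the mating-type cassette features, mat1-Mc (-1.30 ± 0.36) and mat3-Mc (-1.80 ± 0.35) fell, and these are near-identical copies that share reads. The P cassette features looked for, mat1-Pc, mat1-Pm, mat1-Pi, mat2-Pc, mat2-Pi and mat2-Pm, were not found among the named features and could not be compared. mat1-Mm was called higher with 14 and 24 counts in the TAP-Mmi1 IPs and 0 and 0 in the GFP-Mmi1 IPs, and no fold is given for it.

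Of 12 other genes of meiotic entry and ste11 regulation, none rose and 5 fell, namely mei2 (-3.01 ± 0.61), esc1 (-1.51 ± 0.22), the kinase gene pat1 (-1.25 ± 0.22), zfs1 (-0.84 ± 0.15) and atf1 (-0.53 ± 0.17). mei2 was expressed from the nmt1 promoter in both strains, with 76150 and 35269 counts in the TAP-Mmi1 IPs and 49920 and 97600 in the GFP-Mmi1 IPs. Against its own extract, mei2 was at 0.80 ± 0.42 in the TAP-Mmi1 IP (edgeR adjusted p = 0.139). In the GFP-Mmi1 IP it was at 3.81 ± 0.47 (edgeR adjusted p = 0.00236). Also against their extracts, mei2, esc1 and pat1 were called higher in the GFP-Mmi1 IP, where 11.1% of all features were. In the TAP-Mmi1 IP 4 of the 12 genes were called lower, where 30.7% of all features were. Of 8 genes of late meiosis and spore formation, mfr1, an activator of the anaphase-promoting complex, rose (1.58 ± 0.26) and isp3 (-2.47 ± 0.16) and bgs2 (-0.83 ± 0.13) fell. tfg2 covers mfr1 wholly on the opposite strand, where SPNCRNA.606 covers 62.5% of isp3 and SPNCRNA.880 covers 21.7% of bgs2. All 4 starvation genes fell, from -3.61 ± 0.26 for isp4 to -1.22 ± 0.21 for isp7. Against their own extracts, 3 of these 4 were called lower in the TAP-Mmi1 IP and 3 higher in the GFP-Mmi1 IP.

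By contrast, all 9 mRNAs listed as Mmi1 targets were called higher, where 18.9% of all features were. Their median log2 enrichment was 3.98, from 2.15 ± 0.26 for spo5 to 4.91 ± 0.29 for mug9. Among these, SPNCRNA.1397 covers mcp5 wholly and ade9 covers 37.2% of crs1 on the opposite strand, and their reads cannot be told apart there. The value of mam2 (2.03 ± 0.20) lay within the SE of the lowest of the 9, spo5, so that the order of these genes was not resolved. It also lay beside the values of byr2 and ras1, as the plot by gene list shows. The signalling genes rgs1 (2.16) and fus1 (2.37) lay slightly above spo5. mei4, the gene of a meiotic transcription factor, had 21087 and 16894 counts in the TAP-Mmi1 IPs and 204 and 286 in the GFP-Mmi1 IPs (3.98 ± 0.29). In the GFP-Mmi1 IP against its extract, 2 of the 9 targets were called higher, where 11.1% of all features were. For the recovery of several such mRNAs, the paper gives ectopic binding by overexpressed Mei2 as the most likely reason, which was not tested here.

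**Figure D4:**
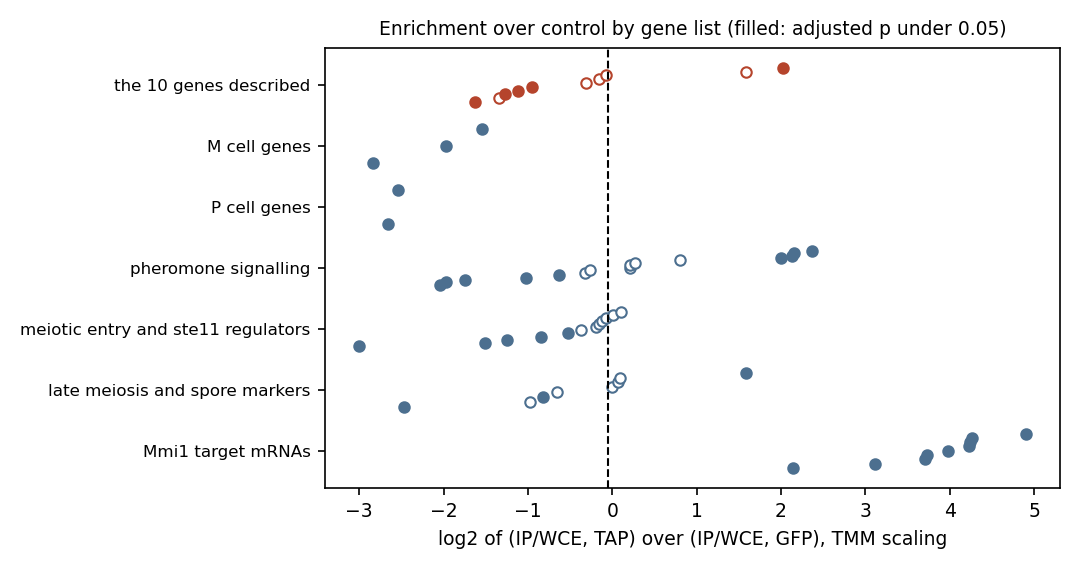
Log2 enrichment over the control from edgeR with TMM (x axis) for the 10 genes described (top) and for the other genes of each list, 1 point per gene, filled where the adjusted p was under 0.05, with the median of all features as a dashed line. The Mmi1 target mRNAs lie from 2.15 to 4.91, and most of the 10 genes and all 5 other M and P cell genes lie left of the dashed line.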

How the data were processed

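For every library the authors deposited the number of reads on each annotated feature as whole counts, neither normalized nor pooled. Per the labels and the methods, paired-end 75-nt reads were demultiplexed with bcl2fastq 2.18.12, trimmed with cutadapt 1.15, aligned with Bowtie2 and counted with MulticovBed. The genome build, the annotation and the strand setting are not given in the sources used here. Of 6974 rows, 1 names no feature and was left out (0.00177% to 0.0552% of the counts per library). Coordinates and sequences are those of RefSeq ASM294v3. Of 1729 features joined by symbol, 99.2% had the start or end that the study lists.

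The members and the gene lists were chosen with earlier results of these data known. The genes named are the 10 members, the listed genes past the threshold, the 3 nearest profiles of ste11 and mei3, and antisense features of members. The neighbours of mam2, and features antisense to listed genes, were named after values were seen.

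edgeR 4.0.16 (R 4.3.3) was run as 1 quasi-likelihood fit over 8 libraries in 4 groups, with TMM, filterByExpr by group and robust estimation. Adjusted p under 0.05 was the threshold, and the SE is the absolute log2 value over the square root of F. The fit was tested on simulated data with a common dispersion and no general gain of the TAP-Mmi1 IPs, so that the choice of scaling was not tested. Ratios used the deposited counts. Levels used counts per 1000000 outside 49 rRNA features per kb of span. Profiles used a prior count of 2 and features within 1 log2 CPM. With 2 libraries per group and a single pooled estimate of spread, precision is limited, and 3 counts correspond to 0.0651 to 2.40 per 1000000 outside rRNA.

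IP and WCE of a strain with the same number come from 1 culture. Their replicate differences correlated at 0.089 (TAP-Mmi1) and 0.026 (GFP-Mmi1) over features. Across strains a shared number marks no common culture. Alternatives were library totals, totals outside rRNA, DESeq2 1.42.0, no filter on low counts, a replicate block and omission of each library.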

Additional observations from a re-analysis of the deposited data

Results flagged for a closer look

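The IP over WCE difference of 5 genes differed between the TAP-Mmi1 and GFP-Mmi1 strains by the test of that difference itself, in the edgeR fit. Of the 10 genes 1 was thus higher and 4 lower, where 18.9% of all features were called higher and 23.7% lower. The log2 value of TAP-Mmi1 over GFP-Mmi1 was 2.03 for mam2, -0.95 for ste11, -1.28 for map3 (not separable from his6), -1.63 for mfm1 and -1.12 for mam1. With library totals in place of TMM, ste11, map3, mfm1 and mam1 had positive values.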

How the results depend on the processing

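The scaling decided most directions, as the TAP-Mmi1 IPs held a larger share of counts outside rRNA. With library totals only, 9 members were higher and 0 lower over the control, and ste11 was at 1.73, map1 2.62, gpa1 2.54, map3 1.40, mfm1 1.06, mfm2 2.35, mfm3 1.34 and mam1 1.56. All features called higher numbered 6113 (1291 with TMM) and lower 32 (1618). In the TAP-Mmi1 IP against its WCE, 0 members were then higher and 10 lower, with mei3 at -2.18, map1 -2.02 and mam2 -0.89 (all features 270 higher and 5785 lower, against 1991 and 2093). In the GFP-Mmi1 IP against its WCE, 10 were lower, with ste11 at -4.96, map1 -4.63, map3 -4.57 and mam1 -4.96 (all features 51 higher and 6707 lower, against 759 and 440). Between WCEs, map1 was at -0.022, mam2 -0.14 and mfm1 -0.13 (all features 12 higher and 7 lower, and 8 higher with totals outside rRNA). With totals outside rRNA, map1 and gpa1 were at 0.053 and 0.021 over the control, mei3 was at -0.13 in the TAP-Mmi1 IP, and 4 members (mei3, mam2, mfm1 and mfm2) were called lower in the GFP-Mmi1 IP (all features 387 higher and 2043 lower). There ste11 was at -0.38, map1 at -0.051 and mam1 at -0.38, none of them called. The ratio rule then kept 1 member and 18.4% of all features, and with TMM sizes 2 members (mei3 and mam2) and 16.4%.

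DESeq2 called 2 members (mam2 and mei3) and 25.1% of all features higher over the control, where map1 was at 0.0099 and not called. It called 1 member higher and 2 lower in the GFP-Mmi1 IP, and 1 higher between WCEs. It called 933 features lower in the GFP-Mmi1 IP, and 270 higher and 104 lower between WCEs, against 20 and 4. The culture as a replicate block changed no call of the 10 genes in any IP comparison (1 member higher and 4 lower over the control), nor did the replicate number between WCEs. With the block, 269 features were lower in the GFP-Mmi1 IP and 2 between WCEs. Leaving out the filter changed no call of a member.

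Leaving out 1 library in turn, members over the control numbered 1 to 2 higher and 3 to 5 lower, members in the TAP-Mmi1 IP 1 higher and 4 to 6 lower, members in the GFP-Mmi1 IP 0 to 3 higher and 0 to 3 lower, and members between WCEs 0 to 1 higher. Log2 values over the control ran from -0.46 to 0.47 for map1, -0.44 to 0.079 for gpa1 and -1.19 to 2.48 for mfm2, and in the TAP-Mmi1 IP from -0.016 to 0.36 for mei3. In the GFP-Mmi1 IP they ran from -0.12 to 0.26 for ste11, -0.13 to 0.79 for map1, -0.34 to 0.034 for gpa1, -0.33 to 0.028 for mfm1, -1.01 to 0.54 for mfm3 and -0.23 to 0.34 for mam1. In the TAP-Mmi1 IP, the calls of mfm2 and mfm3 were lost in 3 and 2 omissions. All features ranged from 865 to 1762 higher and 934 to 1909 lower over the control, 1279 to 2425 and 1620 to 2478 in the TAP-Mmi1 IP, 149 to 1087 and 41 to 992 in the GFP-Mmi1 IP, and 1 to 53 and 0 to 16 between WCEs. Members over 2 times the control ranged from 6 to 9 when 1 culture was left out, where 84.5% of all features were over it with all cultures. With 1 sample left in a group, it was assumed to vary like the others. Leaving map3 and mfm3 out of the counts, a choice made after seeing the data, gave 1 member higher and 3 lower over the control, 1 and 4 in the TAP-Mmi1 IP, and 5 kept by the ratio rule. The causes were not tested. Control IP counts of 5 to 95 for mei3, mfm2 and mfm3 limit their precision.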
